A study of Homo sapiens with 2 samples.

Results

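The genes described here encode the DNA replication machinery. They are 41 genes, chosen by symbol: subunits of the replicative helicase and of its loading and activating factors, the sliding clamp and its loader, replicative polymerases and primase, the enzymes that make and join Okazaki fragments, and enzymes of deoxynucleotide synthesis. All 41 were found among 19775 genes with a probe set of their own on the arrays, through 78 probe sets that the platform annotation pairs with a member symbol and no other gene. The cells were derivatives of C33-A, an adherent cervical carcinoma line that lacks papillomavirus and carries mutated RB1. One line had been stably transfected with the full-length human CA9 cDNA in the vector pcDNA3.0 (the CA9 line), and the other with the empty vector (the control line). CA9 encodes carbonic anhydrase IX, a membrane enzyme that hydrates carbon dioxide at the cell surface. Both lines were kept in RPMI with 10% serum at 5% CO2, and each was measured on 1 Affymetrix array. The sources used here do not say whether either line is 1 clone or a pool.

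Replication is prepared in G1, when the origin recognition complex (ORC), CDC6 and CDT1 load the ring of MCM2 to MCM7 onto DNA. In S phase the kinase CDC7, with MCM10, CDC45 and the GINS complex, turns the loaded ring into a working helicase. Polymerase alpha with primase then lays down primers, RFC loads the PCNA clamp, and polymerases epsilon and delta extend the leading and lagging strands. E2F transcription factors, which RB holds in check, drive many of these genes as cells enter S phase. Carcinoma lines in culture transcribe them strongly.

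No replication gene was 2-fold apart between the lines, and PRIM1, the catalytic subunit of primase, was the only member at least 1.5-fold apart. PRIM1 was 1.58-fold lower in the CA9 line (intensities of 233 and 370). Of the 41 members 30 had lower and 11 had higher values in the CA9 line, and the median log2 difference was -0.11; after quantile normalization 22 were lower. Measurable genes as bright as the members had a median of -0.10, and 62.7% of them had lower values. That share was 73.2% of the members and 53.0% of all measurable genes. The 6 ORC genes all had lower values as deposited, and 5 of the 6 after quantile normalization or loess. Of the 4 genes of deoxynucleotide synthesis 3 had higher values, and 2 with averaged probe sets. All of these differences were under 1.5-fold.

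These values come with 1 array per line. No test, p-value or standard error can be given, and line, culture and array cannot be told apart as sources of a difference. Every difference is log2 of the intensity in the CA9 line minus log2 of that in the control line. Levels are given as intensity in the CA9 line against the control line, with the log2 difference in parentheses. A gene is represented by its brightest probe set, and counted as measurable where either array exceeded the overall median (control probe sets left out), an intensity of 40.8, called the floor. All 41 members passed, with intensities from 95.3 to 3694 on either array. The background is the set of 13823 measurable genes. The transgene itself was not analysed here, so it does not check the labels. As a sign of RNA quality, the 3 prime probe set for ACTB exceeded the 5 prime one by 0.67 (log2) for the CA9 line and 0.73 for the control line, and that for GAPDH by 0.06 and 0.04. Of the epithelial markers, KRT7 lay at 193 and 172, KRT8 at 101 and 68.3 and KRT18 at 80.2 and 56.1 in the CA9 and the control line. KRT14 lay at 64.4 and 41.7 and KRT19 at 44.7 and 39.4. SFN lay at 180.0 and 236, KRT5 at 39.0 and 48.0 and CLDN4 at 50.3 and 58.6, and CDH1 and EPCAM were below the floor. The 10 epithelial markers on the arrays summed to 797 and 754, the 8 fibroblast and endothelial markers to 536 and 502 and the 5 blood cell markers to 237 and 251. Of the markers of other cells, COL1A1 lay at 164 and 170, PECAM1 at 84.0 and 64.0, DCN at 78.2 on both arrays and HBB at 71.3 and 78.9. COL1A2 lay at 70.6 and 61.0, VWF at 56.2 and 55.9 and PDGFRB at 45.3 and 40.3. CD14 lay at 57.1 and 36.9, ITGAM at 52.4 and 41.6 and PTPRC at 30.1 and 58.1. The lower values of PDGFRB, CD14 and PTPRC were below the floor. LUM, CDH5 and CD3E were below the floor on both arrays, and the part of other cells in the results was not tested.

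E2F sites were looked for in the promoters of the members, because they are the textbook link between these genes. The RefSeq promoter table (GRCh38.p14) gives 250 bases before and 50 after a gene's start, and held 37 of the 41 members. MCM4, MCM5, GINS4 and POLD3 had no promoter in it and were not searched. A match was any of TTTCCCGC, TTTGGCGC, TTTCGCGC or TTTGCCGC on either strand. Such a word stood in 20 of the 37 members (54.1%), against 6.04% of 11001 measurable genes and 3.99% of all 27305 genes with a promoter. Counted by promoter and not by gene, it stood in 3.31% of all promoters in the table. Of the genes searched, an E2F word was present in 4 of 4 MCM helicase genes, 3 of 3 genes of licensing control and 3 of 3 GINS genes. Of the 6 ORC genes 1 had such a word, ORC3. ORC1, which E2F is known to control, had none, so a missing word does not show that E2F control is absent. The 200 bases before the start, 5′ to 3′, are shown for the members with several matches there (CDC7, MCM6 and MCM7) and for the members whose values lay farthest from 0 (GINS2 and PRIM1 below, POLD1 above). Capitals mark the matches. In MCM6 matches on opposite strands overlap, which makes each marked run longer than a single word, and for POLD1 the first of the starts in the table is shown.
CDC7, chr1:91500912-91501111, plus strand: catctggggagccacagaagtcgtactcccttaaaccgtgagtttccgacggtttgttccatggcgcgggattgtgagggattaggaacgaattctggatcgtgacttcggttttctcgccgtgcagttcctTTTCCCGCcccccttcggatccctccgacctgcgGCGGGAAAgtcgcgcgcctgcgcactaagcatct
MCM6, chr2:135876444-135876643, minus strand: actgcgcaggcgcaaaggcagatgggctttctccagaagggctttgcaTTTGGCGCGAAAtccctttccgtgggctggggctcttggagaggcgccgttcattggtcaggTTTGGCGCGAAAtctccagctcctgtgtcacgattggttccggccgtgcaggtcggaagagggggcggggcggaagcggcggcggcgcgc
MCM7, chr7:100101398-100101597, minus strand: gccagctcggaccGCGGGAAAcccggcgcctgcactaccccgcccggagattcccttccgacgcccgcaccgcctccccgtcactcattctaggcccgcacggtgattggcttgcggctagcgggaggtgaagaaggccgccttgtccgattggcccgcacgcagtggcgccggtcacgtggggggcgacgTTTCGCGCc
GINS2, chr16:85688955-85689154, minus strand: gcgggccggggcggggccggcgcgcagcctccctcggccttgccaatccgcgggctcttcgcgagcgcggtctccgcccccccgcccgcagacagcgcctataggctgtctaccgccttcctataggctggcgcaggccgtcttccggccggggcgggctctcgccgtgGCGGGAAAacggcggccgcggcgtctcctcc
PRIM1, chr12:56752324-56752523, minus strand: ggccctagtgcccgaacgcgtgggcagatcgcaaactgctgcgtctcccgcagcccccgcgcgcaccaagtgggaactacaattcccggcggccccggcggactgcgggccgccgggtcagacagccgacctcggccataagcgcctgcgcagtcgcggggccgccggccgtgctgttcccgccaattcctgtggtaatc
POLD1, chr19:50384123-50384322, plus strand: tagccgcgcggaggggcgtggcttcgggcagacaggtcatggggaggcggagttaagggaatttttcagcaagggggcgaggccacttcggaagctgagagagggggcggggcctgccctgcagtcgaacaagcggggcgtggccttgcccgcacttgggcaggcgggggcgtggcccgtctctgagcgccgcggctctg

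Members with and without these words overlapped in their differences between the lines. The 20 members with a match had a median difference of -0.10, from -0.41 to 0.28, and the 17 without one had a median of -0.20, from -0.66 to 0.37.  GINS2, with 1 match in the stretch shown, and PRIM1, with none, were the members farthest below 0. CCAAT, the core of the NF-Y site, stood on either strand in 22 of the 37 members (59.5%) against 42.2% of measurable genes. Members with CCAAT had a median of -0.21, from -0.66 to 0.30. Members without it had a median of -0.07, from -0.39 to 0.37, so these groups overlapped too. A match is a run of letters in the reference and no measure of binding.

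**Figure D1:**
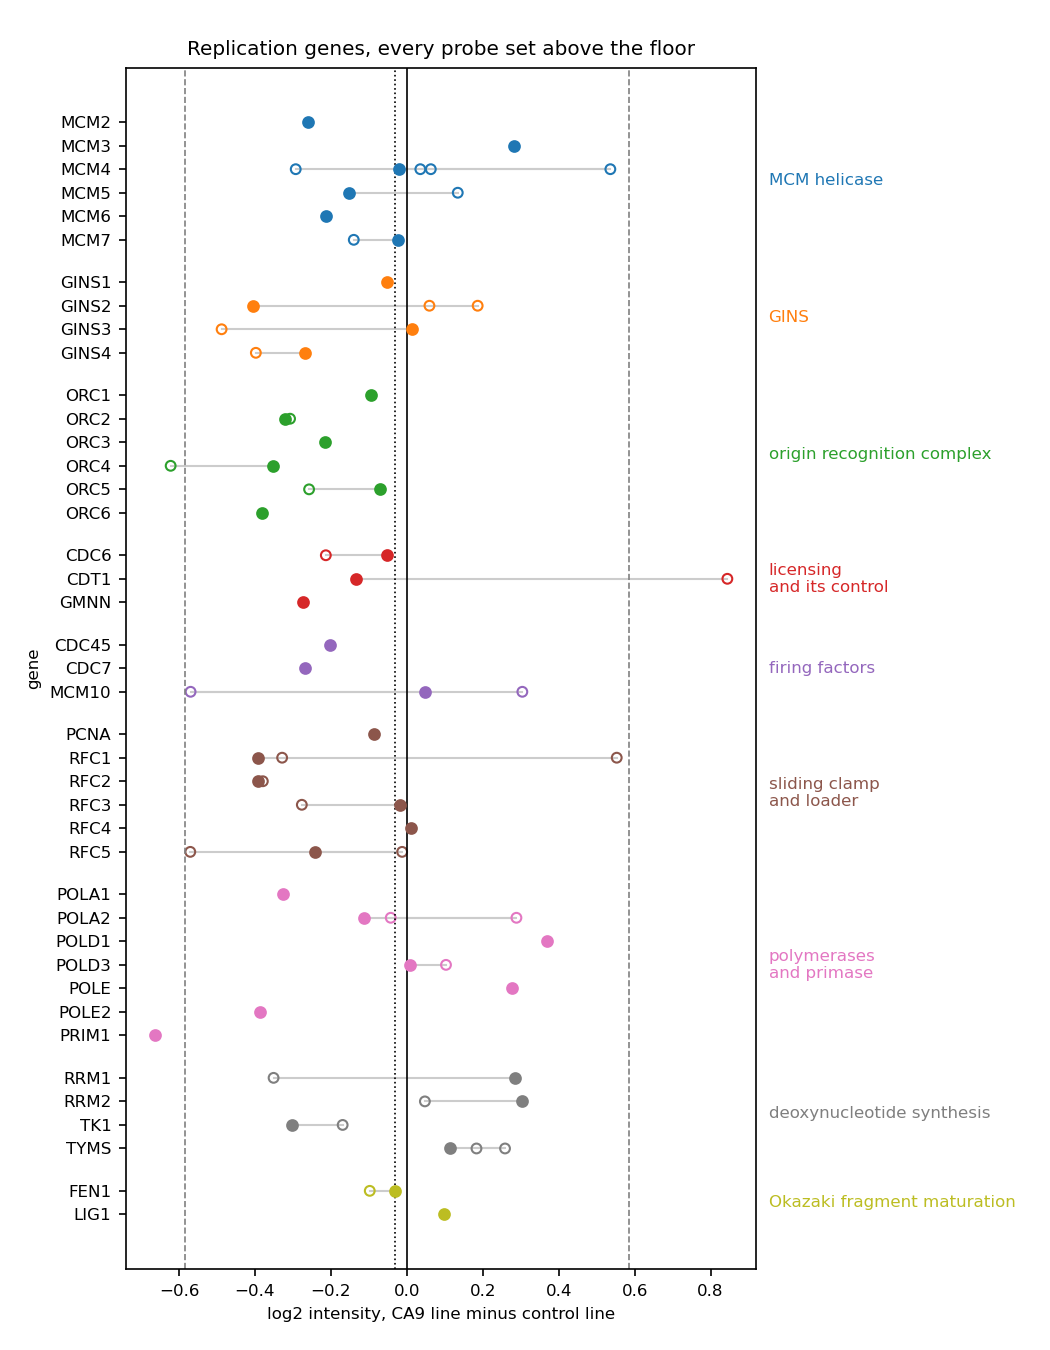
Log2 intensity of the CA9 line minus that of the control line (horizontal) for each of the 41 genes, grouped by role. Filled points are the brightest probe set, open points the other probe sets above the floor, the dotted line is the median of all measurable genes (-0.03), and dashed lines mark 1.5-fold. PRIM1 is the only filled point past a dashed line.

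The count of members apart is set here beside the shares of the background. At 1.5-fold, 1 of 41 members was called, whereas 10.0% of measurable genes were. In the direction of lower values in the CA9 line the members gave 1, and the background 4.74%. In the other direction they gave none, against 5.29%. Among genes of like brightness these shares were 7.44% in either direction and 4.68% for lower values. At 2-fold, 0 of 41 members were called, and 1.35% of measurable genes were, 0.651% higher and 0.694% lower. The differences of the members had an SD of 0.23, those of all measurable genes one of 0.38, and those of genes of like brightness one of 0.34. Of the members 31 (75.6%) lay within 0.31 of 0, the SD between probe sets of a gene over 6186 genes, and 64.6% of all measurable genes did. Of the others, 9 lay below and 1 above.

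The members were among the brighter genes on the arrays. In all, 73.2% of members had lower values in the CA9 line, against 53.0% of measurable genes. The difference between these arrays depended on intensity, however. When the measurable genes were split by mean intensity into 10 bins of equal size, the median difference went from 0.15 in the dimmest bin to -0.14 in bin 7 and -0.07 in the brightest. No member fell in the 4 dimmest bins, and 31 of the 41 fell in the 3 brightest. In bin 8 the median was -0.35 for its 11 members and -0.13 for all its genes. Bin 9 gave -0.18 for 8 members and -0.12 for all its genes, and bin 10 gave -0.02 for 12 members and -0.07. In the 6 bins that held members, which are the genes of like brightness, 62.7% of 8294 genes had lower values and the median was -0.10. After a loess trend on intensity was removed, 23 of 41 members lay below 0 with a median of -0.03, and after quantile normalization 22 did, with a median of -0.04.

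**Figure D2:**
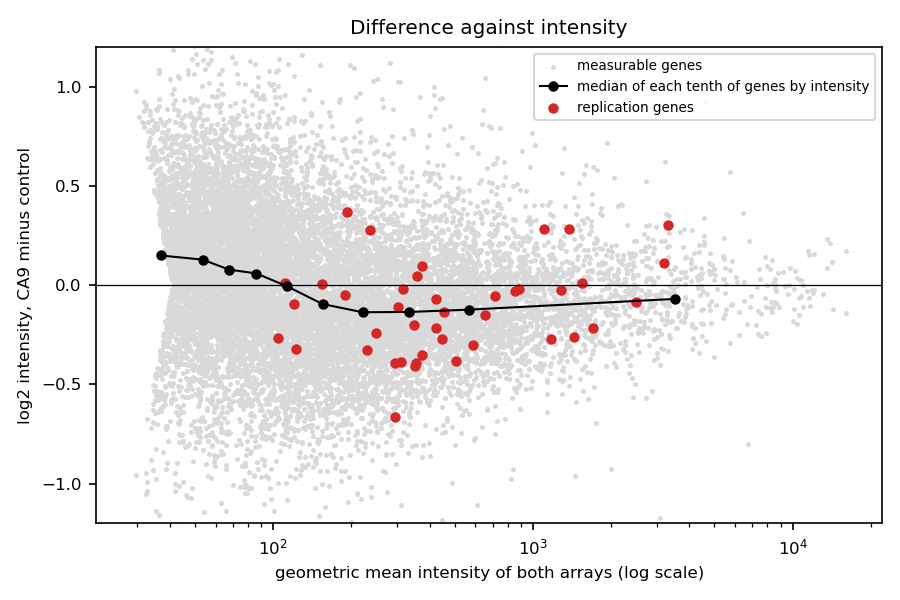
Log2 difference between the lines (vertical) against the geometric mean intensity of both arrays (horizontal, log scale) for measurable genes (grey), replication genes (red) and the median of each of 10 bins of genes by intensity (black). Genes beyond 1.2 on the vertical axis are not drawn. The black line passes from 0.15 at the dim end to between -0.14 and -0.07 where most red points lie.

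The MCM2 to MCM7 helicase, the ring that unwinds the parental strands, had close values in both lines. MCM2 was at 1317 in CA9 cells and 1577 in control cells, a difference of -0.26. MCM6 was at 1584 against 1836 (-0.21). MCM3 went the other way, at 1219 against 1003 (0.28). So subunits of the same ring, which assembles with 1 copy of each, lay on both sides of 0. MCM7 was at 1274 against 1294 (-0.02), and in a second probe set at 802 against 884 (-0.14). MCM5 was at 618 against 687 (-0.15), while a dimmer probe set read 234 against 213 (0.13). MCM4 was at 314 against 318 (-0.02), and its 4 other probe sets ran from -0.29 to 0.54. The brightest probe sets of 5 of the 6 genes were below 0 as deposited, but 3 of 6 were after quantile normalization or loess, and no direction can be given for the ring as a whole.

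Activation of the helicase needs CDC45, GINS, MCM10 and the CDC7 kinase. CDC45, a subunit of the active helicase, was at 326 in CA9 cells and 374 in control cells (-0.20). CDC7, which phosphorylates the loaded MCM ring, was at 407 against 490 (-0.27). Both had 1 probe set each. MCM10, which helps to activate the assembled helicase, gave readings of opposite sign: 364 against 352 (0.05), 157 against 127 (0.30) and 139 against 207 (-0.57). The choice of probe set thus decides which line reads higher for MCM10.

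The GINS complex is a 4-subunit partner of CDC45 and MCM. GINS2 was at 306 in CA9 cells and 405 in control cells (-0.41), with dimmer probe sets at 64.7 against 62.1 (0.06) and 44.9 against 39.4 (0.19). GINS4 was at 95.3 against 115 (-0.27) and at 53.5 against 70.5 (-0.40) in its second probe set above the floor. GINS3 was at 112 against 111 (0.01) and at 31.3 against 43.9 (-0.49) in a second probe set whose CA9 value was below the floor. GINS1 was at 699 against 725 (-0.05). GINS4 was the only gene of the complex with several probe sets above the floor that all read lower in the CA9 line.

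The origin recognition complex marks the sites where the MCM ring is loaded. Its 6 genes were all lower in the CA9 line in their brightest probe sets, with a median of -0.27. ORC6 was at 443 against 577 (-0.38), in a probe set named _x_at, a kind that can also detect other transcripts. ORC4 was at 330 against 421 (-0.35), and its second probe set, at 89.3 against 137 (-0.62), was 1.54-fold lower. ORC2 was at 109 against 137 (-0.32), and its second probe set was 71.6 against 88.7 (-0.31). Both readings of ORC2 were alike. ORC3 was at 393 against 456 (-0.22), and ORC1, the subunit that E2F is known to control, was at 117 against 125 (-0.10). ORC5 was at 413 against 434 (-0.07), and in a second probe set at 116 against 138 (-0.26). After quantile normalization or loess, 5 of the 6 were below 0 and ORC5 was at 0.03 and 0.04, and the median of the 6 was -0.19 and -0.18. The 3 genes with several probe sets above the floor read lower in all of them.

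Licensing is completed by CDC6 and CDT1, and geminin (GMNN) binds CDT1 to prevent a second round of loading. GMNN was at 1064 in CA9 cells and 1285 in control cells (-0.27). CDC6 was at 186 against 193 (-0.05) and at 167 against 193 (-0.21) in its second probe set. CDT1 showed the widest disagreement of any member. Its brightest probe set, named _x_at, was at 435 against 477 (-0.13), whereas the other read 149 against 82.9 (0.84), which is 1.80-fold higher in the CA9 line. Averaging both placed CDT1 at 0.36. No statement on CDT1 transcripts can be made from these readings.

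**Figure D3:**
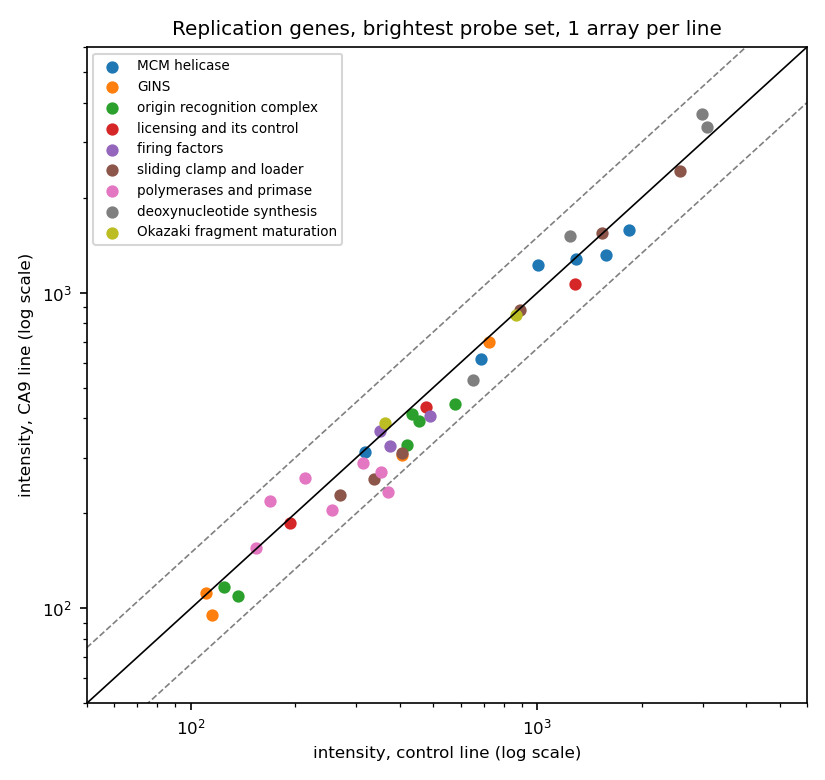
Intensity in the CA9 line (vertical) against the control line (horizontal), both on log scales, for the brightest probe set of each of the 41 genes, coloured by role. The solid line marks equal values and the dashed lines 1.5-fold. Across genes the log2 intensities of both arrays had a Pearson r of 0.99, and PRIM1, at 233 against 370, lies just outside the lower dashed line.

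The PCNA clamp tethers polymerases to DNA, and the pentameric RFC complex loads it. PCNA was at 2431 in CA9 cells and 2580 in control cells (-0.09). RFC2 was at 310 against 407 (-0.39), and its second probe set at 281 against 365 (-0.38). The differences were 1.31-fold and 1.30-fold, so both readings of RFC2 were alike. RFC5 was at 228 against 270 (-0.24), and its 2 other probe sets read 240 against 242 (-0.01) and 143 against 213 (-0.57). RFC1, the large subunit, was at 257 against 337 (-0.39) and 242 against 304 (-0.33), but a dim probe set read 45.5 against 31.0 (0.55). In that dim probe set the control value lay below the floor. RFC3 was at 879 against 891 (-0.02), and in a second probe set at 524 against 634 (-0.28), and RFC4 was at 1547 against 1537 (0.01). The subunits of the loader, which works as a single complex, therefore ranged from -0.39 to 0.01 in their brightest probe sets.

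Polymerase alpha and primase start each new strand. PRIM1, as given above, read 233 in CA9 cells and 370 in control cells in its only probe set, a difference of -0.66. Quantile normalization gave -0.56 and loess -0.55, both short of 1.5-fold. POLA1, the catalytic subunit of polymerase alpha, was at 204 against 256 (-0.33). POLA2, its regulatory partner, was at 290 against 313 (-0.11), with other probe sets at 63.4 against 65.3 (-0.04) and 82.3 against 67.4 (0.29). The subunits of the polymerase alpha and primase assembly listed here thus had lower values in the CA9 line in their brightest probe sets as deposited, but POLA2 was at 0.00 after quantile normalization or loess.

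The catalytic subunits of the strand-extending polymerases read higher in the CA9 line. POLD1, of polymerase delta, was at 218 against 169 (0.37), the highest difference of any member and 1.29-fold. POLE, of polymerase epsilon, was at 259 against 214 (0.28). Their partners lay on both sides of 0. POLE2, the second subunit of polymerase epsilon, was at 271 against 354 (-0.39), and POLD3, an accessory subunit of polymerase delta, was at 155 against 154 (0.01) and 48.4 against 45.1 (0.10). POLD1, POLE and POLE2 had 1 probe set each, so none of these differences had a second reading. Of the other subunits, which are among the further replication genes and are named after their values were seen, POLD4 had a log2 difference of 0.35 and POLE3 of 0.20, whereas POLD2 had -0.16 and POLE4 -0.27.

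Okazaki fragments are trimmed by the flap nuclease FEN1 and sealed by DNA ligase LIG1. FEN1 was at 847 in CA9 cells and 865 in control cells (-0.03), and in a second probe set at 480 against 514 (-0.10). LIG1 was at 388 against 362 (0.10). These were among the smaller differences of the members.

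Deoxynucleotides come from ribonucleotide reductase (RRM1 and RRM2), from thymidylate synthase (TYMS) and, by salvage, from thymidine kinase (TK1). RRM2 was at 3694 in CA9 cells and 2994 in control cells (0.30), and its second probe set was at 2611 against 2526 (0.05). TYMS was at 3338 against 3086 (0.11), and at 1512 against 1264 (0.26) and 51.5 against 45.3 (0.18) in others. RRM2 and TYMS were 2 of the 3 members whose several probe sets all read higher in the CA9 line; the third was POLD3. RRM1 was at 1514 against 1244 (0.28), but its second probe set read 415 against 529 (-0.35). TK1 went the other way in both of its probe sets, at 529 against 651 (-0.30) and 261 against 294 (-0.17). The median of the 4 genes was 0.20, and 0.07 with averaged probe sets.

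The probe sets limit how far single members can be read. Of the 73 member probe sets above the floor, 48 (65.8%) were lower in the CA9 line, against 53.0% of 24174 such probe sets of all genes. Genes of like brightness had a share of 62.7%, but that was counted by gene and not by probe set. It therefore cannot be set beside the 65.8%. Counted by gene, 73.2% of the members were lower. Of 23 members with several probe sets above the floor, 11 read lower in all of them in the values as deposited, 3 read higher in all of them and 9 had readings on both sides of 0. The same count over all genes was not made, so these counts have no background beside them. The SD between probe sets of a member was 0.29, larger than the SD of 0.23 among the members themselves. The 18 other members had 1 probe set above the floor. Readings of one gene come from the same RNA on the same array, so they are no replicates.

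Other genes of the pathway and of neighbouring cell cycle steps were listed by function. The counts below stand beside the shares of all measurable genes, of which 53.0% were lower and 10.0% at least 1.5-fold apart. Among genes as bright as the replication genes these shares were 62.7% and 7.44%. Of 40 measurable further replication genes, 24 were lower and 16 higher in the CA9 line, with a median of -0.10. MCM9, a helicase of the MCM family that acts in repair, was at 63.3 against 121 (-0.93), with a log2 difference of -0.38 in a second probe set whose CA9 value lay below the floor. SSRP1, a subunit of the histone chaperone FACT, was at 1291 against 759 (0.77), with a log2 difference of 0.30 in a second probe set. They were the 2 of 40 at least 1.5-fold apart.

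Of 23 further genes of nucleotide supply, 17 were lower, with a median of -0.12. RRM2B, an alternative small subunit of ribonucleotide reductase, was at 97.1 against 149 (-0.62) and was the only one past 1.5-fold; quantile normalization and loess left none. Its relative among the members, RRM2, read higher in the CA9 line. Of 15 measurable replication-dependent histone genes, which are transcribed in S phase but whose messages mostly lack poly(A) tails, 6 were lower and 9 higher, with a median of 0.18, and none was 1.5-fold apart. Farthest from 0 were H1-4 at 0.46 and H1-2 at 0.41. These histone genes were dim, with intensities up to 118. At such intensities the median difference of all measurable genes went from 0.15 in bin 1 to -0.01 in bin 5. After quantile normalization or loess the median of 14 measurable histone genes was 0.12.

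Among 33 regulators of the G1 to S transition, 20 were lower and the median was -0.06. Of the 33, 5 were at least 1.5-fold apart, against 10.0% of measurable genes, and 1 of them, CCND2, at least 2-fold. With a floor at the 75th percentile, 2 of 25 measurable regulators were 1.5-fold apart. E2F3, an activating E2F, was at 176 against 293 (-0.74), with a log2 difference of -0.21 in a second probe set. CCNE2, cyclin E2, was at 81.1 against 127 (-0.65), with a log2 difference of -1.03 in a second probe set whose CA9 value lay below the floor. CDKN1C, an inhibitor of cyclin-dependent kinases, was at least 1.65-fold higher against the floor, reading 67.5 and 37.8. Its 3 other probe sets also read higher. CDKN2B, another such inhibitor, was at 42.6 in the CA9 line and below the floor in the control line. Against the floor CDKN2B was only 1.04-fold higher, so its place among the 5 rests on a value under the floor. CCND2, cyclin D2, read 105 against 36.1 in its brightest probe set and 54.8 against 52.4 in another. The control value of the first lay under the floor, against which CCND2 was at least 2.57-fold higher.

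Of 19 checkpoint genes 14 were lower, with a median of -0.21. WEE1, the kinase that holds back CDK1, was at 587 against 1156 (-0.98), with a log2 difference of -0.34 in a second probe set, and was the only one past 1.5-fold. Of 39 mitosis genes 32 were lower, with a median of -0.14, and none was 1.5-fold apart. The shares lower were 73.7% of checkpoint and 82.1% of mitosis genes, against 62.7% of genes as bright as the replication genes. After quantile normalization the medians of checkpoint and mitosis genes were -0.12 and -0.08, and that of the replication genes was -0.04. With no replicate, no difference between these lists was tested.

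**Figure D4:**
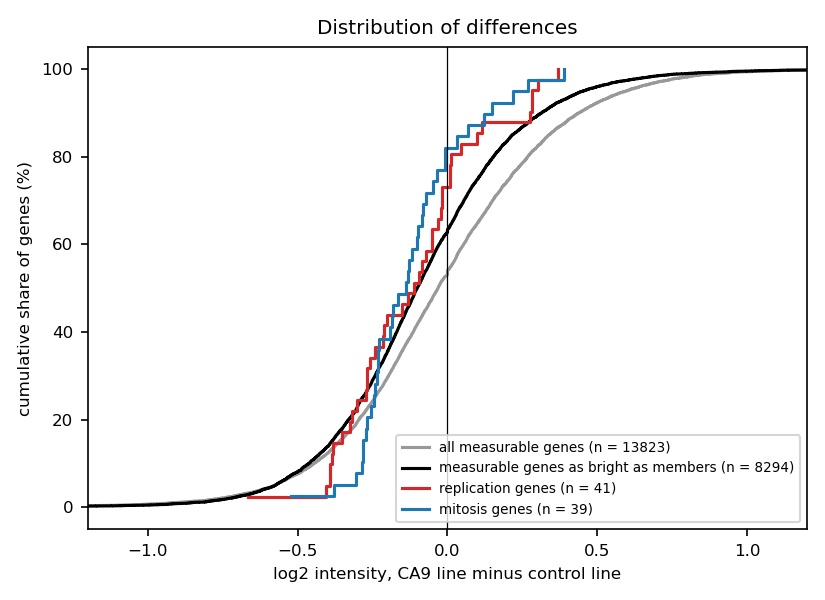
Cumulative share of genes (vertical, %) by log2 difference between the lines (horizontal) for all 13823 measurable genes, the 8294 measurable genes in the intensity bins that hold replication genes, the 41 replication genes and 39 mitosis genes. The curve of the replication genes crosses the middle near that of genes of like brightness (medians -0.11 and -0.10) and is steeper, with an SD of 0.23 against 0.34.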

How the data were processed

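The table deposited by the authors holds 1 intensity per probe set and array for 54675 probe sets, on a linear scale, which were summarised by RMA according to the labels (per the submitters' processing notes); the version and probe definitions are not given in the sources used here. Intensities were put on log2 with no pseudocount. The platform annotation pairs 41091 probe sets other than controls with 1 gene; those with several genes (1801) or none stayed unnamed, and symbols were updated by Entrez identifier through the RefSeq table of GRCh38.p14. The brightest probe set by mean log2 intensity stands for a gene. Calls are by size (1.5-fold and 2-fold), with no test, since there is 1 array per line, and the number of arrays limits the precision. The members and gene lists were chosen with earlier results of these data known. The named genes were the members past 1.5-fold, the 6 farthest from 0 on each side, MCM2 to MCM7 and those with probe sets on both sides of 0, and other members by role; in other lists, those past 1.5-fold or else the 2 farthest from 0. Alternatives were other probe-set rules, floors, scalings and a pseudocount of 16. The background of genes of like brightness was chosen after the data were seen. Scripts were tested on simulated data. Python 3.11.15, numpy 2.4.6, pandas 2.3.3, statsmodels 0.14.6 and matplotlib 3.10.9 were used.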

Additional observations from a re-analysis of the deposited data

How the results depend on the processing

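The median difference of the 41 members, -0.11, came to -0.17 once both arrays had the same median, -0.042 after quantile normalization, -0.028 after loess (span 0.3) and -0.17 with the second-brightest probe set, which 23 members have above the floor. Under these scalings the median of all measurable genes was -0.10, 0.00 and 0.00. Other alternatives (averaged probe sets, no _x_at or _s_at, a floor at the 75th percentile, no floor, a pseudocount of 16) gave a median from -0.11 to -0.07. Members below 0 numbered 30, and 34 of 41 with equal medians, 22 with quantile normalization, 23 with loess and 15 of 23 with the second-brightest probe set. Members at least 1.5-fold apart numbered 1, against 2 of 31 without _x_at or _s_at (PRIM1 and ORC4), 2 of 23 with the second-brightest probe set (CDT1 and ORC4), and 0 with quantile normalization or loess. No member was 2-fold apart under any of the 9 alternatives. Changing the probe set gave the other sign in 6 to 8 members, and changing the scaling in 4 to 8. No paired analysis was possible because each line has 1 array. Signal over background limits GINS4, ORC1, ORC2 and GINS3, whose brightest probe sets lay nearest the floor.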

Other observations

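The mitosis genes had HMMR and MKI67 at their ends (intensity in the CA9 line against the control line, log2 differences otherwise). Of the mitosis genes 32 of 39 (82.1%) read lower in the CA9 line, against 62.7% of genes as bright as the replication genes. None was 1.5-fold apart in its brightest probe set, against 10.0% of measurable genes. HMMR, a spindle protein, was at 332 in CA9 cells and 477 in control cells (-0.52), and its second probe set read 260 against 414 (-0.67). MKI67, which encodes the proliferation antigen Ki-67, was at 865 against 660 (0.39), while the other 3 readings of the gene came to 0.19, 0.21 and -0.22. DUT and RAD1 were chosen after their values were seen. Among genes of nucleotide supply, DUT, which removes dUTP before it can be built into DNA, was at 1069 against 1563 (-0.55), and the other 2 readings came to -0.31 and -0.66. RAD1, a subunit of the checkpoint clamp that resembles PCNA, was at 158 against 228 (-0.53), and its 4 other probe sets all read lower, from -0.86 to -0.32. PCNA itself, in its 1 probe set, was at -0.09. RAD1 thus had 5 of 5 readings lower in the CA9 line, and 11 of the 23 replication genes with several readings also read lower in all of them. How many of all genes did so was not counted.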
